A study of Mus musculus with 267 samples.

Results

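PU1 (PU.1, encoded by Spi1) occupancy was compared between macrophages with and without the transcription factor EGR2 after 24 h of interleukin-4 (IL-4), at 4677 sites that EGR2 itself occupied in wild-type macrophages at that time and not in basal cells. The comparison rested on 4 chromatin immunoprecipitation sequencing (ChIP-seq) libraries, 2 of LyzMCreEgr2flfl and 2 of Egr2flfl bone marrow-derived macrophages (BMDMs), of 8 PU1 libraries of these genotypes when the basal condition was included and of 267 samples in the whole series. In Egr2flfl cells both Egr2 alleles were flanked by loxP sites and intact. LyzMCreEgr2flfl cells carried the same alleles together with a Cre recombinase under the lysozyme M promoter, which is active in myeloid cells, so that Egr2 was deleted in the myeloid lineage. Basal cells were untreated, and treated cells received 20 ng/mL mouse IL-4 for 24 h. The bone marrow came from female mice of 8 to 12 weeks and was differentiated with M-CSF, and the labels call the libraries of a group biological replicates. The deletion itself cannot be read from PU1 tags.

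PU1 is an ETS family factor that defines the macrophage lineage together with C/EBP and AP-1 factors and opens many of the enhancers that signals later act on. IL-4 activates STAT6, which drives alternative activation, and EGR2 is a zinc-finger factor that IL-4 induces in macrophages. The question put to these libraries was whether EGR2, once induced, affects how much PU1 occupies the enhancers where both factors meet.

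The sites were taken as deposited, with no selection on PU1. All lay outside promoters, 2606 in introns and 2071 between genes by the deposited annotation, and 807 also carried an EGR2 peak at 1 or 6 h. PU1 peaks called in C57BL/6J (C57) BMDMs, from other animals than those compared here, overlapped 1903 sites in both conditions, 830 at 24 h alone, 78 in basal cells alone and 1866 in neither. The C57 list at 24 h had a peak within 10 kb of the start of 8 of 8 macrophage marker genes, but also of 4 of 5 B cell, 3 of 6 T cell, 4 of 5 neutrophil precursor and 2 of 5 fibroblast markers. PU1 peaks therefore did not tell these cell types apart.

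The sequences of 4 sites are given in mm10 on the forward strand, because they carry the largest losses of PU1 and a site of high and steady PU1. Capitals mark matches on either strand to the core letters GTGGGNG of an EGR site, where N is any base, and GGAAGT of an ETS site. The first site lay between genes 4957 bp downstream of the start of Gng8, the next in an intron of Anks1, the next in an intron of Slc18a1 and the last between genes 15662 bp upstream of Siglecg.
Gng8 site, chr7:16896593-16896892: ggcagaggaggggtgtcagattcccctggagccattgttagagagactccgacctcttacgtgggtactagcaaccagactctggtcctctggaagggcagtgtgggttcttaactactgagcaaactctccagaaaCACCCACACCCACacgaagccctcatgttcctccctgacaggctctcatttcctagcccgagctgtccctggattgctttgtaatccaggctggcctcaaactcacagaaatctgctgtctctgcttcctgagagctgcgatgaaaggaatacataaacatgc
Anks1 site, chr17:27968002-27968301: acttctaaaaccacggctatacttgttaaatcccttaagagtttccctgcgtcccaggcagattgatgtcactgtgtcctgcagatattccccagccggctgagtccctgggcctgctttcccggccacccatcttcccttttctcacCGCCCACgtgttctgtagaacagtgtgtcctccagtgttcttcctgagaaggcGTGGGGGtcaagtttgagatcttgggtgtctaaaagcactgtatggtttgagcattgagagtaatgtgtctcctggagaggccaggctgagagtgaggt
Slc18a1 site, chr8:69063501-69063800: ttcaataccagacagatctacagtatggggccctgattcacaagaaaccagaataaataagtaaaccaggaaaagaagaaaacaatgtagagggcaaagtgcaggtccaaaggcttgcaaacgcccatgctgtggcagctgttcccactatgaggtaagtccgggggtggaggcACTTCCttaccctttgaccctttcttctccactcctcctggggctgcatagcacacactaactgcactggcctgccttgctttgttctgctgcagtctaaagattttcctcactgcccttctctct
Siglecg site, chr7:43392392-43392691: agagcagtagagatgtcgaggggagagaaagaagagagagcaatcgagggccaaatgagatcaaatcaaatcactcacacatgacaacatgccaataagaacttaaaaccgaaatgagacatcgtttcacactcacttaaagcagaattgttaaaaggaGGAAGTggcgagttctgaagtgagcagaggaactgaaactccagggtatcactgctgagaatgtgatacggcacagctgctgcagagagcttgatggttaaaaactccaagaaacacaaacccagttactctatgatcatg
The Gng8 and Anks1 sites each held 2 EGR matches and no ETS match, the Slc18a1 site 1 ETS match and no EGR match, and the Siglecg site 1 ETS match, which was part of the longer PU1 letters GAGGAAGT. EGR letters were present in 52.7% of the 4677 sites and in 55.1% of all 30662 EGR2 regions of the C57 time course, and GGAAGT in 37.6% and 37.9%. Other letters were more frequent at the sites than over those regions. The regions were not filtered by annotation or time of the peak and include the sites, so the 2 sets are not alike in these respects. The STAT6 letters (TTC and GAA with 4 bases between them) were present in 21.2% against 9.2%. The AP-1 letters TGANTCA were present in 25.7% against 18.5% and the C/EBP letters TTGCNNAA in 20.6% against 16.9%.

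PU1 values are tags in a 300 bp window at a site, given per 10000000 tags of the library as deposited. Library totals ran from 8978157 to 19802651 tags. At 24 h the median site held 15.4 and 16.7 PU1 tags in the Egr2flfl libraries and 10.0 and 10.6 in the LyzMCreEgr2flfl libraries. In basal cells the medians were 10.2 and 9.91 in Egr2flfl and 8.68 and 8.94 in LyzMCreEgr2flfl. Both Egr2-deleted libraries thus lay below both controls in either condition, and the gap was wider at 24 h. All sites together took up 1.79% ± 0.00121 (SD, n = 2) of the PU1 tags of Egr2flfl libraries at 24 h and 1.61% ± 0.00192 (SD, n = 2) of those of LyzMCreEgr2flfl libraries, so that the share decreased by 9.86%, which was far more than the spread between replicates. In basal cells the shares were 1.55% ± 0.0111 and 1.48% ± 0.00484 (SD, n = 2 each), and the share decreased by 4.32%. An exact permutation test of 2 against 2 libraries cannot give a two-sided p below 0.333, which was the value of both differences. Bulk libraries cannot tell fewer cells with PU1 at a site from less PU1 per cell.

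**Figure D1:**
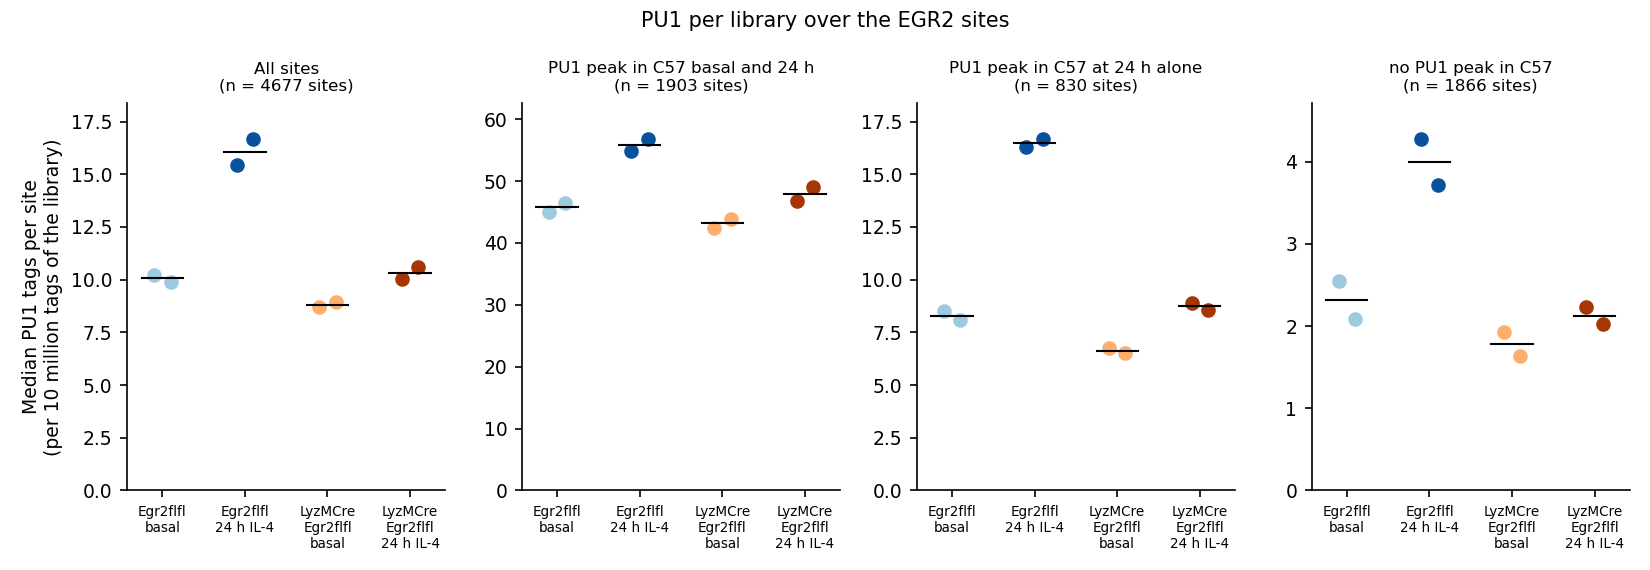
Median PU1 tags per site (y axis, per 10000000 tags of the library) in each of the 8 libraries (points) with the mean of each group (line), over all sites and over sites split by their PU1 peak in C57 macrophages. At sites with a C57 peak at 24 h alone, the 2 Egr2flfl libraries at 24 h stood at 16.3 and 16.7 tags and the LyzMCreEgr2flfl libraries at 8.91 and 8.58.

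Site by site, PU1 was lower in LyzMCreEgr2flfl macrophages at 24 h at 438 of 4677 sites (9.36%) and higher at 4 (0.0855%), with limma on log2(tags + 1) and a Benjamini-Hochberg adjusted p under 0.05. The median log2 change over all sites was -0.33, 71.0% of sites had a change below 0, and the middle 50% lay between -0.92 and 0.05. Among the 438 lower sites the change ran from -4.28 to -0.46 with a median of -1.88. Both deleted libraries lay below both controls at 2084 sites (44.6%) and above them at 492 (10.5%). A fold rule on group means (at least 2.5-fold, at least 16 tags in either group) gave 243 lower sites (5.2%) and no higher site (0%), and at all 243 the libraries did not overlap.

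The calls rested on both Egr2flfl libraries at 24 h. Without either of them limma called 0 sites (711 and 864 at an unadjusted p under 0.05), and without LyzMCreEgr2flfl library 1 or 2 of that time it called 94 and 245, whereas the count by the fold rule stayed between 239 and 276. Scaling also set the balance of calls. Median-ratio factors are set from these same sites, where every library has tags, and so draw the typical change there towards 0. Median-ratio scaling over the sites, which moved the median change by 0.22 to -0.11, gave 244 lower and 143 higher sites. DESeq2, whose default factors are also median ratios over these sites, gave 90 and 45, and edgeR with TMM factors 408 and 384. Against these, edgeR with library totals gave 683 and 19.

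**Figure D2:**
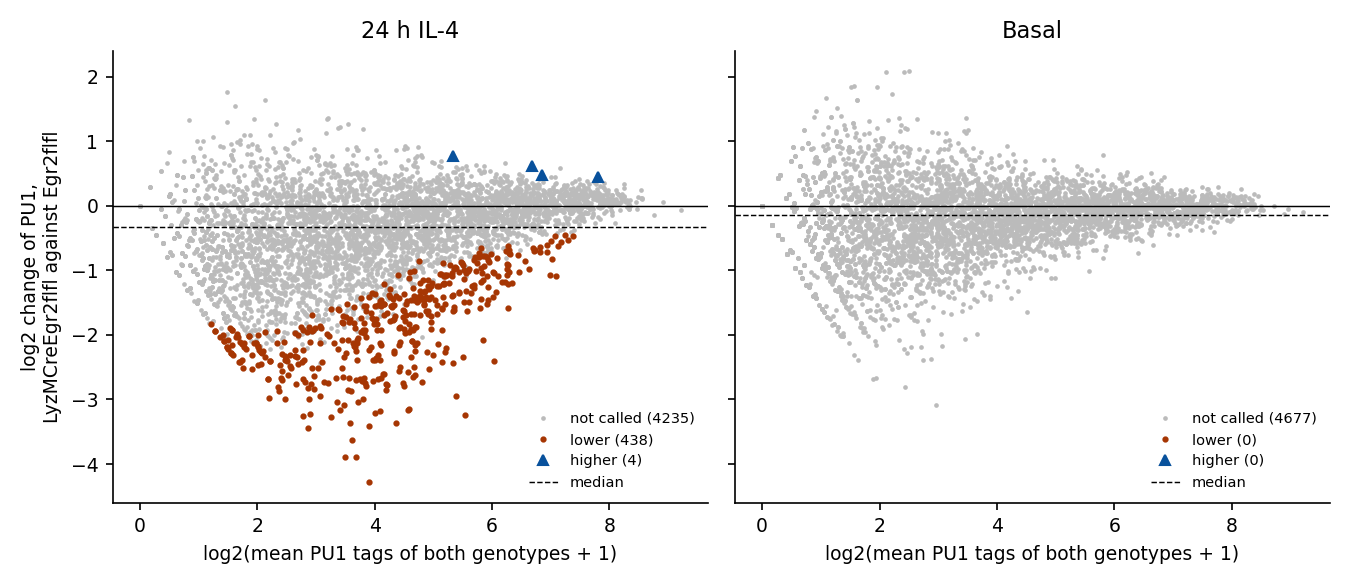
log2 change of PU1 in LyzMCreEgr2flfl against Egr2flfl (y axis) by log2 mean tags plus 1 of both genotypes (x axis), 1 point per site, at 24 h (left) and in basal cells (right). Red points (438) were called lower and blue triangles (4) higher at 24 h, no site was called in basal cells, and the dashed line is the median of -0.33 at 24 h and -0.14 in basal cells.

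The 10 sites with the largest falls were ranked by log2 of the group means plus 1, not by the fitted change. They were taken among called sites without overlap outside chromosome 18. At these 10 sites, both Egr2flfl libraries stood higher at 24 h than in basal cells, and the deleted libraries held at most 8.08 tags at 24 h. At the Gng8 site (chr7:16896593-16896893), near the gene of a G protein gamma subunit, PU1 stood at 30.8 and 24.1 tags in Egr2flfl at 24 h and at 1.11 and 0 in LyzMCreEgr2flfl. This was 75 against 1 read, a depth-adjusted ratio of 77.5 with an exact 95% interval of 13.5 to 3102 that covers counting error only. The fitted log2 change was -4.28 ± 0.69 (SE; adjusted p = 0.00272, limma). In basal cells the same site held 7.65 and 3.13 tags in Egr2flfl and 0 and 3.25 in LyzMCreEgr2flfl, so that the basal libraries overlapped. C57 EGR2 tags there were 8.18 in basal cells and 42.9 after 24 h of IL-4.

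The Anks1 site (chr17:27968002-27968302), in a gene of a signalling adaptor with ankyrin repeats, carried the strongest EGR2 signal of the 10, with 175 tags at 24 h in C57 cells against 13.3 in basal cells. Its PU1 stood at 26.6 and 19.2 tags in Egr2flfl at 24 h and at 0 and 1.51 in LyzMCreEgr2flfl, which was 62 reads against 3 and a ratio of 21.4 (exact 95% interval 6.98 to 106). In basal cells it was 2.55 and 3.13 in Egr2flfl and listed at 0 in both LyzMCreEgr2flfl libraries. Its log2 change at 24 h was -3.90 ± 0.60 (SE; adjusted p = 0.00223, limma).

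The Slc18a1 site (chr8:69063501-69063801), in the gene of a vesicular monoamine transporter and 24995 bp upstream of the proton pump subunit gene Atp6v1b2, was the one of the 10 with strong PU1 and a C57 peak in both conditions. It held 85.7 and 81.0 tags in Egr2flfl at 24 h against 7.80 and 8.08 in LyzMCreEgr2flfl, and 20.4 and 8.87 against 2.89 and 10.6 in basal cells. The 231 and 23 reads at 24 h gave a ratio of 10.4 (exact 95% interval 6.75 to 16.7), and the log2 change was -3.24 ± 0.47 (SE; adjusted p = 0.0020, limma). Both Egr2flfl libraries at 24 h thus stood above all basal libraries, and the deleted ones stayed within their own basal range. It held no EGR match.

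The Ddhd1 site (chr14:45740727-45741027), upstream of a phospholipase gene, held 51.4 and 32.1 tags in Egr2flfl at 24 h against 3.34 and 4.04 in LyzMCreEgr2flfl. Here the basal libraries did not overlap either, with 16.2 and 8.34 tags against 2.89 and 1.63. The other 6 of the 10 lay in introns of Slc35a3 (chr3:116681629-116681929), Piwil2 (chr14:70403024-70403324) and Jade1 (chr3:41602639-41602939) and between genes near Pias1 (chr9:63009466-63009766), Pkdcc (chr17:83181575-83181875) and Lclat1 (chr17:73251049-73251349). They held between 7.42 and 26.6 tags in Egr2flfl at 24 h and at most 1.11 in LyzMCreEgr2flfl, or 1 to 3 reads over both deleted libraries. Of the 10 sites, 8 held EGR letters, against 52.7% of all sites, and the Slc18a1 and Ddhd1 sites held none. At all 10 the edgeR adjusted p on recovered reads was below 0.05, and DESeq2 gave no adjusted p for the Pias1 and Pkdcc sites.

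The 4 higher sites each held at least 27.8 tags in every library. The site 52560 bp upstream of Rel (chr11:23823380-23823680), the gene of an NF-κB subunit, held 183 and 190 tags in Egr2flfl and 280 and 233 in LyzMCreEgr2flfl at 24 h, with a log2 change of 0.45 ± 0.12 (SE; adjusted p = 0.0305, limma). In basal cells the 2 genotypes overlapped there, at 217 and 191 against 205 and 206. The site upstream of Fchsd2 (chr7:101060547-101060847) held 98.5 and 92.7 against 130.3 and 138 tags, with a log2 change of 0.48 ± 0.15 (SE; adjusted p = 0.0475, limma). Another site lay near the predicted gene Gm35060 and was named after its values were seen. All 4 sites had a C57 PU1 peak in both conditions.

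The size of the decrease differed with how PU1 was distributed in normal cells. Where C57 macrophages had a PU1 peak at 24 h alone, the median log2 change at 24 h was -0.80, and 184 of 830 sites (22.2%) were lower, against 9.36% of all sites. Where they had one in both conditions it was -0.06, with 129 of 1903 sites (6.78%) lower and 4 higher. The respective medians in Egr2flfl libraries at 24 h were 16.3 and 16.7 tags for the first class and 54.8 and 56.9 for the second, and in LyzMCreEgr2flfl 8.91 and 8.58 against 46.8 and 49.0. The log2 distance between the 2 classes was thus -1.69 and -1.71 in the Egr2flfl libraries at 24 h and widened to -2.27 and -2.38 in the deleted ones, a difference of -0.63 that exceeded the spread between replicates (exact permutation p = 0.333, the smallest possible). In basal cells it was -2.28 and -2.39 against -2.49 and -2.58, a difference of -0.20. Sites without a C57 PU1 peak had a median change of -0.62 at a low level of 4.28 and 3.71 tags in Egr2flfl, and the 78 sites with a peak in basal cells alone had one of -0.21.

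Under median-ratio scaling the sites with a peak in both conditions had a median of 0.19, while the gap between the classes was -0.75 and had been -0.74. Level and class were linked, since 1426 of the 1559 sites in the highest tertile of basal PU1 (above 23.3 tags in Egr2flfl) had a peak in both conditions. Within the middle tertile (4.64 to 23.3 tags) the 578 sites with a peak at 24 h alone had a median of -0.74 and the 467 with a peak in both conditions one of -0.15. Summed over sites, those with a peak at 24 h alone had PU1 tags that fell by 43.9% and made up 44.1% of all tags lost, with 830 of the 4677 sites. At sites with a peak in both conditions the sum fell by 3.31%.

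EGR letters also went with the decrease. At the 2467 sites that held GTGGGNG the median change was -0.54, with 11.7% lower, and at the 2210 sites without it -0.14, with 6.79% lower. Median tags at 24 h were 10.3 and 10.5 in Egr2flfl against 5.57 and 5.55 in LyzMCreEgr2flfl where the letters were present, and 25.7 and 25.3 against 20.1 and 20.2 where they were absent. The log2 distance between the 2 kinds of site was -1.24 and -1.19 in Egr2flfl and -1.68 and -1.69 in LyzMCreEgr2flfl at 24 h, while the basal libraries of the genotypes overlapped at -1.56 and -1.74 against -1.92 and -1.68. The same order held within sites with a C57 PU1 peak in both conditions (-0.15 with and -0.01 without the letters) and at 24 h alone (-0.95 and -0.58). Sites with the letters had a median GC content of 48.3% against 46.0%, and within tertiles of GC content the medians were -0.55, -0.58 and -0.49 with and -0.16, -0.13 and -0.16 without the letters. Under median-ratio scaling the median without the letters was 0.09.

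The strength of EGR2 in C57 cells gave a shallower gradient, with medians of -0.26, -0.33 and -0.41 from the lowest to the highest tertile of EGR2 tags at 24 h and 6.03%, 9.81% and 12.3% of sites lower. Over libraries, the log2 distance between the highest and the lowest tertile overlapped between genotypes at 24 h (0.94 and 0.87 against 0.81 and 0.87). For the STAT6 letters the order was the opposite. Sites with the STAT6 letters (TTC and GAA with 4 bases between them) had a median change of -0.17 with 6.86% lower and those without of -0.37 with 10.04% lower. For the ETS letters GGAAGT the median and the count of calls ran in opposite directions, with a median of -0.21 but 11.5% lower where they were present and -0.40 with 8.09% lower where they were absent. The letters TGANTCA of AP-1 (-0.29 against -0.35) and TTGCNNAA of C/EBP (-0.33 against -0.33) made little difference. Intronic and intergenic sites (-0.35 and -0.31) were alike, and so were sites within 10 kb of a gene start (-0.28) and over 50 kb away (-0.38). Sites share libraries and are not replicates, so these medians are given as descriptions.

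**Figure D3:**
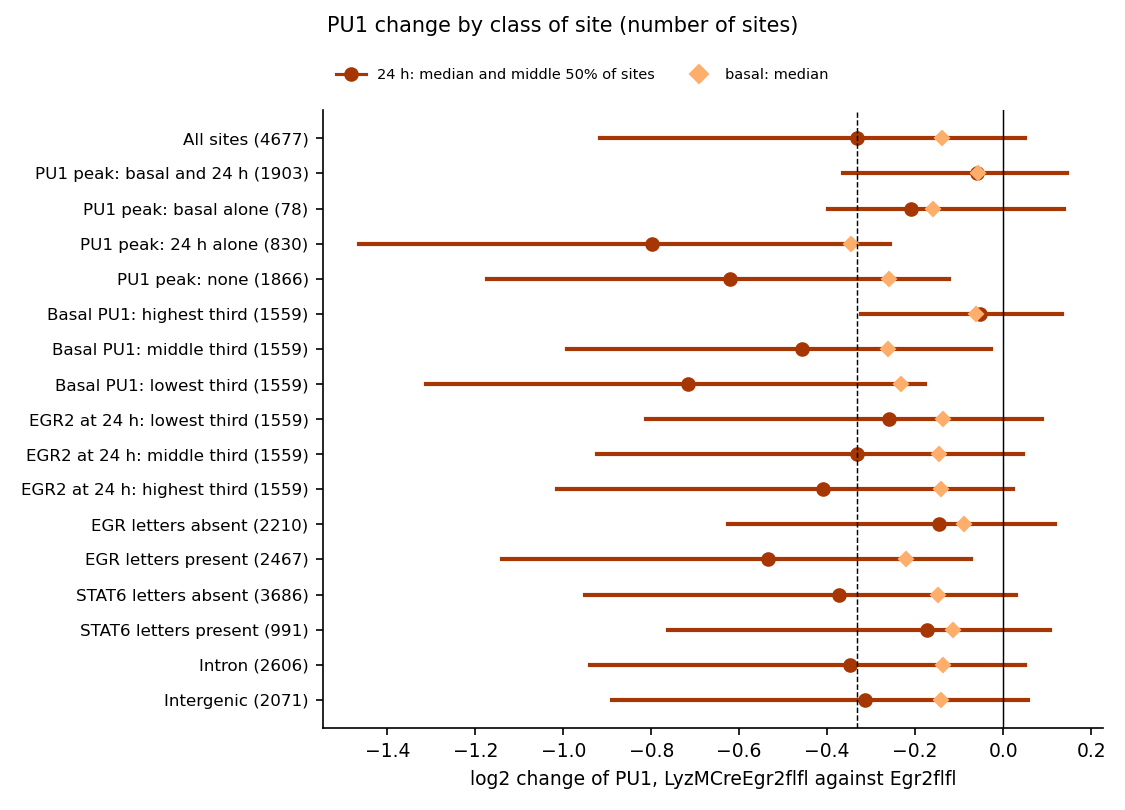
Median log2 change of PU1 in LyzMCreEgr2flfl against Egr2flfl by class of site (rows, with the number of sites), at 24 h (red, with bars over the middle 50% of sites) and in basal cells (orange). Sites with a C57 PU1 peak at 24 h alone had a median of -0.80 at 24 h, and those with a peak in both conditions one of -0.06.

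Of genes linked to alternative activation, 11 of 17 had a site within 50 kb of their start, and 2 of those 22 sites (9.09%) were lower, against 9.36% of all sites. Their median change was -0.14. One lay 5171 bp upstream of Chil3 (chr3:106172585-106172885), which encodes the chitinase-like protein Ym1, and within 50 kb of Chil4. It held 136 and 92.7 tags in Egr2flfl at 24 h and 50.1 and 27.3 in LyzMCreEgr2flfl, a log2 change of -1.58 ± 0.28 (SE; adjusted p = 0.0035, limma). In basal cells it held 88.4 and 53.2 against 41.5 and 36.6, so that the deleted libraries were lower in both conditions. C/EBPβ (CEBPb) stood at 181 ± 85.0 and 34.7 ± 6.60 tags there at 24 h, and H3K27ac at 12 ± 1.52 and 1.1 ± 0.085 (SD, n = 2 each). The other was 4184 bp upstream of Arg1 (chr10:24931518-24931818), the arginase gene, with 139.7 and 104 against 64.6 and 67.2 tags (log2 change -0.86 ± 0.21, SE; adjusted p = 0.0182, limma). Its basal tags were 60.4 and 43.8 against 27.96 and 30.9. By contrast the strongest PU1 site of Arg1, 22922 bp upstream of it (chr10:24950256-24950556), held 244 and 231 tags in Egr2flfl and 241 and 239.9 in LyzMCreEgr2flfl (0.02 ± 0.11, SE; adjusted p = 0.95, limma).

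Genes of IL-4 signalling and its feedback had 33 sites near 14 of 19 genes, with 5 lower (15.2%, against 9.36% of all sites), none higher and a median of -0.36. The lower sites were near Il4ra, Klf4, Batf, Batf3 and Bhlhe40 and were named after their values were seen. The site 14829 bp upstream of Il4ra, the gene of the IL-4 receptor alpha chain, held 28.3 and 31.5 tags in Egr2flfl at 24 h against 7.80 and 8.58, which was close to its basal 6.80 and 10.95 against 7.71 and 4.06. Its log2 change was -1.75 ± 0.43 (SE; adjusted p = 0.0178, limma). The site upstream of Batf, which encodes an AP-1 family partner of IRF4, held 132 and 128 tags against 72.4 and 59.6 and was also lower in basal cells, at 62.9 and 48.5 against 40.5 and 39.8. The Batf3 site held 0 and 1.04 tags in basal and 13.7 and 11.1 in 24 h Egr2flfl cells and 0 and 2.52 in LyzMCreEgr2flfl cells at 24 h. The sites near Klf4 and Bhlhe40, genes of transcription factors induced by IL-4, had log2 changes of -1.15 and -1.09.

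Lipid handling genes had 3 lower sites of 19 (15.8%, against 9.36% of all sites; median -0.53), near Ptgs1, Scd2 and Plin2. The site 9309 bp upstream of Ptgs1, the cyclooxygenase 1 gene, held 47.1 and 49.4 tags in Egr2flfl at 24 h against 11.1 and 13.1, and 16.2 and 16.7 against 5.78 and 4.06 in basal cells. Its log2 change was -1.91 ± 0.34 (SE; adjusted p = 0.0035, limma). The Plin2 call rested on 12 reads against 1. The Abca1 site (chr4:53201611-53201911), near the gene of a cholesterol exporter, held 32.6 and 32.8 tags against 13.4 and 14.6 with overlapping basal libraries (9.35 and 6.78 against 6.75 and 10.6). Its adjusted p was 0.0581 with limma, 0.0075 with edgeR and library totals, 0.062 with edgeR and TMM factors and 0.32 with DESeq2. Of the lower sites near the genes listed so far, DESeq2 also called those near Chil3 and Ptgs1 (adjusted p = 0.012 and 0.025). It did not call the lower sites near Arg1, Il4ra, Klf4, Batf, Bhlhe40 and Scd2 (0.19, 0.11, 0.26, 0.071, 0.22 and 0.18). For the Batf3 and Plin2 sites it gave no adjusted p. The size factors of DESeq2 were set from these same sites. With library totals, edgeR called all the sites that DESeq2 did not call, with adjusted p from 6.7e-06 (Batf) to 0.0065 (Klf4). It also called the Batf3 site (adjusted p = 0.0020, edgeR) but not the Plin2 site (0.053).

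Of the remaining lists, chemokines, cytokines and their receptors had 1 lower site of 18, near Il10ra, on 10 reads against 1, and the EGR family with its NAB corepressors 1 of 5, near Egr1. The Il10ra site did not pass with edgeR and library totals (adjusted p = 0.16), and DESeq2 gave it no adjusted p. The Egr1 site passed with edgeR and library totals (adjusted p = 0.0095) but not with DESeq2 (adjusted p = 0.28). The lists of macrophage lineage and AP-1 factors (0 of 13), matrix and proteases (0 of 21), phagocytosis, lectins and antigen presentation (0 of 13) and glucose and energy metabolism (0 of 9) had none, nor had the examples in the study (0 of 11). Over all sites the share of lower sites was 9.36%, and no list was tested against it. These lists hold few sites each, so their counts do not show that they were spared. The medians of these lists ran from -0.53 to -0.00067, and no list had a higher site.

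**Figure D4:**
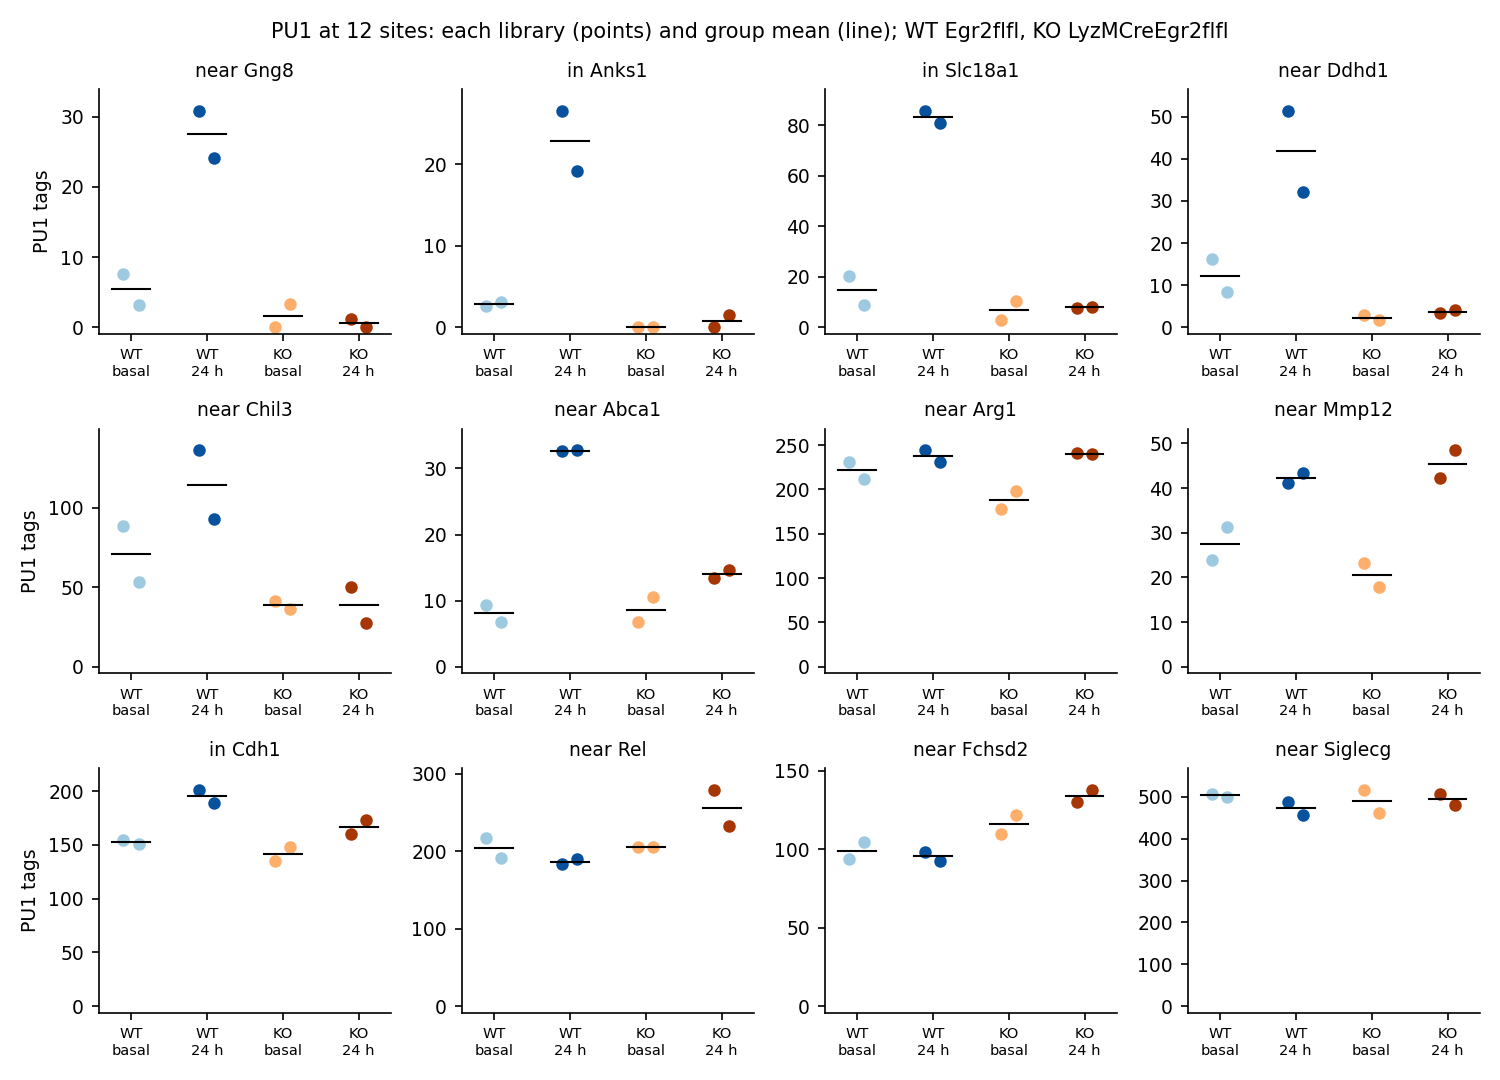
PU1 tags (y axis, per 10000000 tags of the library) in each library (points) and group mean (line) at 12 sites, with Egr2flfl as WT and LyzMCreEgr2flfl as KO. The Gng8, Anks1, Slc18a1, Ddhd1 and Chil3 sites were lower and the Rel and Fchsd2 sites higher at 24 h by limma, and the Abca1, Arg1 (22922 bp upstream), Mmp12, Cdh1 and Siglecg sites did not pass.

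Of 21 genes chosen as examples, 14 had a site within 50 kb, and of the strongest PU1 sites of each the Chil3 site passed. Over all sites 9.36% were lower. These sites were picked for high PU1, and the highest tertile of basal PU1 had a median change of -0.05 with 7.44% lower. The Mmp12 site, 13865 bp upstream of the macrophage elastase gene (chr9:7330366-7330666), held 41.1 and 43.3 tags in Egr2flfl at 24 h and 42.3 and 48.5 in LyzMCreEgr2flfl. Its log2 change was 0.10 ± 0.25 (SE; adjusted p = 0.86, limma). The deleted cells held 23.1 and 17.9 tags there in basal conditions. At the same site CEBPb averaged 35.6 ± 0.95 tags in Egr2flfl and 15.04 ± 13.6 in LyzMCreEgr2flfl at 24 h (SD, n = 2 each). STAT6 stood at 35.3 ± 1.12 and 19.8 ± 4.09 and PPARg at 43.3 ± 5.46 and 23.8 ± 13.9 in the same order. Neither STAT6 nor PPARg passed there with limma. The Cdh1 site (chr8:106612208-106612508), in an intron of the E-cadherin gene, held 201 and 189 against 160.4 and 173 tags without overlap, with a log2 change of -0.23 ± 0.13 (SE; adjusted p = 0.28, limma). The site in Egr2 itself held 16.3 and 11.1 against 8.91 and 10.1 tags (-0.47 ± 0.43, SE; adjusted p = 0.56, limma), and the one in Spi1, the gene of PU1, 11.1 and 22.3 against 21.2 and 28.8 (0.61 ± 0.36, SE; adjusted p = 0.31, limma).

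The 4 sites with the most PU1 over all libraries, near Sfi1, Siglecg, Atg4c and Sptssa, had log2 changes between -0.14 and 0.12 at 24 h. The Siglecg site held 488 and 457 tags in Egr2flfl and 506 and 481 in LyzMCreEgr2flfl (0.06 ± 0.09, SE; adjusted p = 0.71, limma), and the genotypes overlapped. Under edgeR with TMM factors the Siglecg, Sptssa and Sfi1 sites counted as higher, with log2 changes of 0.37, 0.43 and 0.26, of which the last had been -0.06 with limma.

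In basal cells limma called 0 sites (0%) between genotypes, with 421 at an unadjusted p under 0.05, and edgeR called 2 with library totals, DESeq2 0. The median change was -0.14. The fold rule gave 7 lower sites (0.15%) and no higher site, and both deleted libraries lay below both controls at 1194 sites (25.5%) and above at 431 (9.22%). Without LyzMCreEgr2flfl basal library 2, limma called 24. At the 438 sites that were lower at 24 h, which were called in a fit that took its estimate of the spread from the basal libraries too, the median basal change was -0.46, the basal libraries lay apart and lower at 227 (51.8%, against 25.5% of all sites) and apart and higher at 9. These values describe the called sites and were not tested. The median site among them held 10.6 tags in basal Egr2flfl cells and 6.14 in basal LyzMCreEgr2flfl cells.

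IL-4 raised PU1 at 383 sites (8.19%) in Egr2flfl and at 131 (2.8%) in LyzMCreEgr2flfl macrophages, with median changes of 0.34 and 0.15. It lowered PU1 at 2 sites in Egr2flfl, near Eci2 and Maf, and at 5 in LyzMCreEgr2flfl, near Uap1, Vcan, Eml4, Rfc2 and Usp47, all named after their values were seen. The balance moved with scaling. In Egr2flfl it was 373 higher and 274 lower with edgeR and TMM factors, 65 and 28 with DESeq2 and 147 and 51 with median-ratio scaling. In LyzMCreEgr2flfl it was 113 higher and 34 lower, 45 and 4, and 74 and 12 in the same order. Both comparisons share their 24 h libraries with the genotype comparison. Without Egr2flfl 24 h library 1 or 2, that fit called 0 and 1 sites in Egr2flfl, and in LyzMCreEgr2flfl a fit on its own 4 libraries called 0 (524 at an unadjusted p under 0.05). The difference between the genotypes' responses was tested directly. The interaction of genotype and IL-4 passed at 0 sites (0%) with limma, with 434 at an unadjusted p under 0.05, at 4 with edgeR with library totals and at 0 with DESeq2. Its median was -0.17. By limma and DESeq2 the genotype effect on PU1 was therefore not shown to differ between 24 h and basal cells at single sites. The 4 sites of edgeR, named after their values were seen, were near Uap1, Rtn4ip1, Pars2 and Spata21. At the Uap1 site PU1 stood at 74.5 and 66.8 tags in Egr2flfl and 27.9 and 26.3 in LyzMCreEgr2flfl at 24 h, against 62.9 and 44.3 and 58.8 and 49.6 in basal cells, and so fell with IL-4 in the deleted cells alone, where the IL-4 change passed (log2 change -0.97, adjusted p = 0.0249, limma).

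Other factors and marks were measured at the same sites in libraries of their own. CEBPb, which shares with PU1 the role of a lineage factor, had a median log2 change of -1.14 at 24 h, STAT6 of -0.79 and PPARg, a nuclear receptor of alternative activation, of -1.28, against -0.33 for PU1. The CEBPb libraries of a group were further apart than those of PU1, with 2.09% and 1.35% of their tags in the sites in Egr2flfl and 1.01% and 0.826% in LyzMCreEgr2flfl at 24 h. A direct test of the difference between PU1 and each factor passed at 0 sites for CEBPb (145 at an unadjusted p under 0.05), at 0 for STAT6 (43) and at 6 for PPARg, with limma. Those 6 were named after their values were seen. PPARg was at 0 on average in one genotype at each of them. At 4, near Stk17b, Ctsl, Setbp1 and Dusp4, it was at 0 in the deleted cells while the log2 change of PU1 lay between 0.059 and 0.69. The 0.69 was at the Ctsl site, which held almost no PU1 at 24 h (0.86 and 0 tags in Egr2flfl against 2.23 and 0.5). The Setbp1 site was also low (3.43 and 3.09 against 4.46 and 3.03), whereas the Stk17b site held 172 and 158 against 177 and 167. At the other 2, near Rps24 and Fubp3, PPARg was at 0 in Egr2flfl while PU1 had log2 changes of -2.44 and -1.61. The median differences of 0.76, 0.42 and 0.84 between PU1 and CEBPb, STAT6 and PPARg were 0.03, 0.00 and 0.32 after median-ratio scaling within each factor. That scaling is set from these same sites and draws the typical change of each factor towards 0. The scaled differences therefore cannot decide whether the factors differ. STAT6 and PPARg chromatin was also crosslinked with DSG and PU1 and CEBPb chromatin with formaldehyde alone, and the part of this in the differences was not tested.

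At the 438 sites where PU1 was lower, the other measures were lower as well. CEBPb had a median change of -1.95 there and -1.07 at the other 4239 sites, STAT6 -1.32 and -0.75, PPARg -1.60 and -1.26, and H3K27ac, a mark of active enhancers, -1.53 and -0.43. H3K4me2, a mark of enhancers in general, had -1.03 and -0.12. H3K27ac was lower by limma at 226 of the 438 (51.6%, against 23.2% of all sites), which was 20.8% of all its 1087 lower sites. For CEBPb the overlap was 102 sites, 23.3% of the PU1 list and 26.4% of its own 386 (8.25% of all sites), and for H3K4me2 147, 33.6% and 35.2% of its 418 (8.94%). STAT6 passed at 1 site, near BC017158, and PPARg at 0 (702 and 670 at an unadjusted p under 0.05). Across the 4677 sites the change of PU1 at 24 h correlated with that of H3K4me2 (Pearson r = 0.57), H3K27ac (0.51), CEBPb (0.40), STAT6 (0.31) and PPARg (0.07). These values describe sites that share their genotypes, their region of the genome and its base composition, and in basal cells they ran from -0.003 to 0.17. PPARg and STAT6 rested on few tags at 24 h. The median site held 6.14 and 9.45 PPARg tags in Egr2flfl and 2.78 and 0 in LyzMCreEgr2flfl, and 8.71 and 7.08 against 4.12 and 3.38 STAT6 tags. Their low correlations and few calls therefore do not show that they changed apart from PU1.

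**Figure D5:**
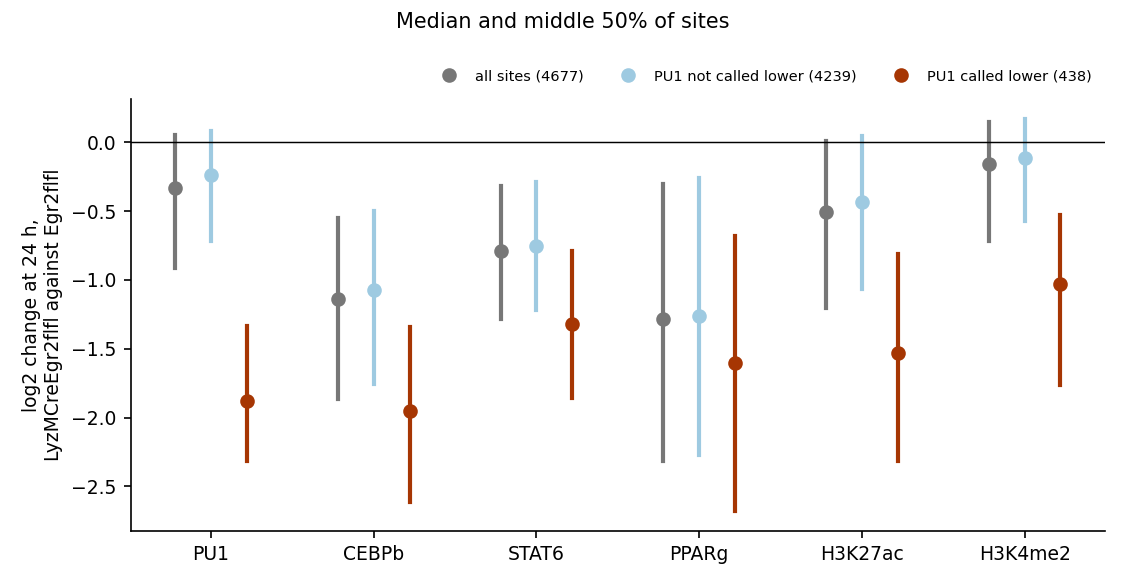
Median log2 change at 24 h in LyzMCreEgr2flfl against Egr2flfl (y axis; bars, middle 50% of sites) of PU1, 3 other factors and 2 histone marks over all sites (grey), sites where PU1 was not called lower (light blue) and the 438 where it was (red). The PU1 bars describe the selection itself, and H3K27ac had medians of -1.53 at the red and -0.43 at the blue sites.

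At the Anks1 site H3K27ac averaged 105 tags in Egr2flfl and 9.15 in LyzMCreEgr2flfl (adjusted p = 0.000203, limma). STAT6 stood there at 46.0 ± 21.2 and 3.75 ± 0.52 tags (SD, n = 2 each) and did not pass. At the Piwil2 site PPARg averaged 141 ± 61.6 and 6.26 ± 3.93 tags and did not pass. CEBPb averaged 51.6 ± 30.5 and 10.8 ± 0.099 there (SD, n = 2 each). H3K27ac was lower at all 10 of the largest falls, with adjusted p between 6.38e-05 and 0.0372 (limma), whereas H3K4me2 did not pass at the Pias1, Pkdcc, Jade1 and Ddhd1 sites (adjusted p = 0.167, 0.0847, 0.0721 and 0.0881, limma). H3K27ac did not pass at the lower PU1 sites near Arg1, Il4ra, Klf4 and Plin2 (adjusted p = 0.61, 0.27, 0.19 and 0.33, limma). At the steady Siglecg site it averaged 35.3 and 40.4 tags (adjusted p = 0.69, limma), and at the Rel site 124 and 161 (adjusted p = 0.20, limma).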

How the data were processed

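ChIP-seq for PU1 was performed on basal and 24 h IL-4-treated BMDMs of both genotypes, 2 libraries per group. The authors aligned reads with Bowtie2 to mm10 and counted tags with HOMER. The deposited signal is a tag coverage within 300 bp of each site (1000 bp for histone marks), scaled to 10000000 tags per library. Whole reads were recovered for 100.0% of 37416 PU1 values (tolerance 0.1 read), so the depth of 8978157 to 19802651 tags is known, and reads without molecular identifiers leave intervals that cover counting error only. The C57 PU1 peak lists hold peaks that the authors kept by IDR score across replicates, and served with C57 EGR2 tags as annotation, and 4 value columns that matched no sample were not used.

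Samples were grouped by their labels. log2(tags + 1) was fitted with limma 3.58.1 (R 4.3.3; 4 group means, 8 libraries, trend, no filter, two-sided, Benjamini-Hochberg adjusted p under 0.05 over 4677 sites). Alternatives were edgeR 4.0.16 and DESeq2 1.42.0 on recovered reads, other scaling, filters and pseudocounts, a replicate block and leaving out each library, and the scripts were tested on simulated data. Named sites were the 10 largest falls and up to 6 largest rises past limma without overlap, the strongest PU1 site within 50 kb of 21 genes, and the 4 sites with most PU1. Falls and rises were ranked by log2 of the group means plus 1. Sites on chromosome 18 were tested but give no sequence here, and 1 of the higher sites is not reported here. Sequences came from the mm10 genome and annotation. Members, lists and classes were chosen with earlier results of these data known. With 2 libraries per group, p-values measure the spread between these libraries.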

Additional observations from a re-analysis of the deposited data

How the results depend on the processing

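With 2 libraries per group, counts of called sites moved with the tool and with single libraries, while the median change at 24 h stayed below 0. For the genotype at 24 h (442 sites with limma, 438 lower and 4 higher), DESeq2 called 135, edgeR with TMM 792, edgeR with library totals 702, limma without trend 225, a minimum mean of 16 tags 226 and a pseudocount of 5 670, and leaving out 1 library gave 0 to 582. In basal cells TMM called 1, library totals 2 and limma without trend 4, and leaving out 1 library 0 to 24. The interaction had 4 with library totals, 3 with a pseudocount of 5 and 0 to 0 without 1 library. The IL-4 response in Egr2flfl (385) was 93, 647, 738 and 161 with DESeq2, TMM, library totals and no trend, 198 with median-ratio scaling, 630 with a pseudocount of 5 and 0 to 505 without 1 library. In LyzMCreEgr2flfl (136) it was 49 with DESeq2, 206 with library totals, 30 without trend, 86 with median-ratio scaling, 0 with its own 4 libraries and 26 to 181 without 1 library. A library left alone in its group was assumed to vary like the others.

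The median change at 24 h was -0.12 with DESeq2, -0.061 with TMM, -0.093 above 16 tags, -0.11 with median-ratio scaling and -0.22 with a pseudocount of 5, and -0.34 to -0.30 without 1 library. In basal cells these were -0.018, -0.025, -0.073, -0.033 and -0.089, and -0.16 to -0.095. The fold rule gave 148 sites with a pseudocount of 5, 369 at 2-fold, 650 with no minimum, 135 with median-ratio scaling and 239 to 276 without 1 library. The difference between PU1 and CEBPb passed at 1 site with median-ratio scaling and 5 with a pseudocount of 5, that of PPARg at 0 and 17, and without 1 PU1 library each of the 3 factors at 0. The change in the share of tags was -0.129 points at sites with a C57 peak and -0.178 to -0.175 without 1 library, and the gap between sites with a peak at 24 h alone and in both conditions was -0.51 with a pseudocount of 5.

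Median-ratio scaling turned these class medians positive: 0.19 for PU1 peaks in both conditions (0.10 with and 0.24 without EGR letters; 0.145, 0.087 and 0.22 in the lowest, middle and highest tertile of basal PU1), 0.035 for basal peaks alone, 0.20 for the highest basal tertile, 0.092 without EGR letters (0.079, 0.12 and 0.066 by GC tertile), 0.13 with GAGGAAGT, 0.032 with GGAAGT and 0.063 with STAT6 letters. The Cdh1, Sfi1 and Atg4c sites turned to 0.038, 0.20 and 0.11 with DESeq2, 0.096, 0.26 and 0.17 with TMM and 0.030, 0.20 and 0.11 with median-ratio scaling. Leaving out 1 library at a time, the Cd36 site ran from -0.26 to 0.50 and the Arg1 site from -0.023 to 0.055, the lowest without Egr2flfl 24 h library 2, and Pparg between -0.065 and 0.20 and Sptssa between -0.037 and 0.29, the lowest without LyzMCreEgr2flfl 24 h library 1. Of 510 values for 31 named sites, 438 kept direction and side of the threshold, 49 lost the call, 10 gained one and 13 reversed. The cause of these changes was not tested.

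Same-numbered libraries did not deviate together (correlations of 0.0054 to 0.081 over 6 pairs of groups). A replicate block called 542 sites at 24 h, 0 in basal cells, 0 for the interaction, 461 and 191 for IL-4 in Egr2flfl and LyzMCreEgr2flfl, and 0, 0 and 6 for PU1 against CEBPb, STAT6 and PPARg.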
